A study of Mus musculus with 8 samples.

Results

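C10 is a sorted population of common myeloid progenitors, the bone marrow cells from which megakaryocytes, erythroid cells, granulocytes and monocytes arise. Its cells were KIT+ CD16/32- CD34dim CD41+ CD9+ CD48bright, and 2 of the 8 libraries of the series came from it. The other 6 libraries were 2 for each of 3 populations, all KIT+ CD16/32-. C13 cells were CD34dim CD41- CD9-, C18 cells were CD34dim CD41+ CD9+ CD48dim, and C2 cells were CD34bright CD41+ CD9+. All cells were primary cells of wild-type C57BL/6 mice, taken from marrow at 40000 to 50000 cells a preparation and treated with the transposase TDE1 in the presence of digitonin. Population names follow the sample titles, since the series text names partly other clusters, and they rest on the sorted phenotype. Neither an age nor a batch is given in the labels. It is also not stated if paired libraries stem from different mice, so every p-value covers only how these libraries vary, and that variation may be technical.

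In ATAC-seq a transposase cuts DNA that is free of nucleosomes, so that gene starts and enhancers of active genes give peaks of inserted adapters. Myeloid progenitors hold enhancers of several lineages open at the same time, and the set of open enhancers narrows as a lineage is taken up. Peaks at gene starts are mostly shared between cell types, whereas peaks away from starts differ more between them. CD48 is a receptor of the SLAM family, CD41 is the integrin alpha IIb chain carried by megakaryocytes, and CD9 is a tetraspanin of the cell surface.

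Each library had a list of 100000 peaks, made with the caller F-Seq, and the peaks were ranked by their height from 1 (the strongest). A locus was a protein-coding gene with 10 kb to each side, and it took the rank of its strongest peak. Of 21887 loci, 18458 had a peak in at least 2 libraries and were compared. Both C10 libraries ranked above all 6 others at 1263 loci (6.84% of those compared) and below all 6 others at 1376 loci (7.45%). Neighbouring genes can share a peak, and the 2 sets held 1121 and 1117 distinct best peaks. By the same rule, C2 stood above all others at 980 loci and below at 436, C13 at 2194 and 3551, and C18 at 4618 and 2110, so that C10 and C2 were the populations with fewer such loci. With fewer libraries to pass, more loci met the rule: 1918 were above without C10 replicate 1, 2328 above and 3165 below without C10 replicate 2, and 2376 below without C13 replicate 1. The lists give no read counts, so depth is unknown. F-Seq peaks covered 94.2 and 99.3 Mb in the C10 libraries, within the range of 62.5 to 101 Mb over all 8.

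At the loci where C10 stood above, its best peaks had a median rank of 4395 in replicate 1 and 4672 in replicate 2, against 7830 to 11236 in the other libraries. At the loci where it stood below, the medians were 24668 and 22320 in C10 and 8179 to 15356 elsewhere. Most of the separations were small. At the loci above, the nearest rank of another library was divided by that of the weaker C10 library. This ratio had a median of 1.18, and it passed a doubling (1 on the log2 scale) at 81 of them. At the loci below, the rank of the stronger C10 library was divided by the nearest rank of another library. The median ratio was 1.12, and 17 loci passed a doubling. Just inside the rule above lay Gucy1a1, with 20370 in the weaker C10 library and 20391 in the nearest other, and Serinc1, with 1823 and 1825. Just outside it, a C10 library tied with a C2 library at Abca4 (10479) and Ank3 (3808). On the lower side, Krt83 (67523 against 67511) and Zbtb24 (12613 against 12607) lay just inside. Aadacl2fm1 and Aadacl4fm5, without a listed peak in either C10 library, lay just outside.

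The locus ranks were also fitted across all 18458 loci with limma, as C10 minus the mean of C2, C18 and C13 on the scale of minus log2 rank, so that a positive difference is a stronger peak in C10. At a Benjamini-Hochberg adjusted p under 0.05, 1255 loci were higher in C10 (6.8%) and 2876 were lower (15.6%), and the median difference of all loci was -0.20. The call was made at 863 of the 1263 loci above and at 900 of the 1376 below, but these p-values use the ranks that chose the loci and are no independent support. Each library of C10 carried much of this count: without replicate 1 the fit called 45 higher and 19 lower, and without replicate 2 it called 357 and 689. Without C13 replicate 2 it called 744 and 1735. A fit that pooled the other 6 libraries as 1 group called 0 in either direction, with 881 higher and 716 lower at an unadjusted p under 0.05. When C10 had to differ from each of the other 3 populations separately, limma called 2 loci higher (0.0108%), Jakmip2 and Trpc5, and 0 lower (0%), with 430 and 258 at an unadjusted p under 0.05.

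HOMER peak lists, deposited for the same libraries, ranked the loci a second time from the same reads. Cut to equal length, they placed C10 above all others at 1256 of 16808 loci (7.47%) and below at 1158 (6.89%). Of the loci above by F-Seq, 1205 could be ranked with HOMER and 919 of these (76.3%) were above again. Of the loci below, 787 of 1328 (59.3%) were below again. None of either set turned to the opposite side, and the sign of the difference was shared at 1198 and 1326 loci. The higher set was thus the more often found by both callers, although a test of that difference was not made.

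The loci with the widest separation above all others were led by Jakmip2, which encodes a microtubule-binding protein. Its best peak ranked 292 and 205 in C10 replicates 1 and 2, 2060 and 3946 in C2, 3721 and 2747 in C18, and 20214 and 22043 in C13. C10 was far stronger than any other library, and C13 was the weakest. The difference was 4.56 ± 0.31 on the log2 scale (SE, limma adjusted p = 0.00019), and against each population in turn it was 3.54 (C2), 3.71 (C18) and 6.43 (C13), with an adjusted p of 0.0366 for the 3 together.

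Trpc5, a cation channel gene on the X chromosome, gave ranks of 1269 and 1279 in C10, 6226 and 9427 in C2, 9934 and 11496 in C18, and 34065 and 40292 in C13. The order of the populations was that of Jakmip2, with C10 first and C13 last. The difference was 3.51 ± 0.25 (SE, limma adjusted p = 0.0002), and the adjusted p for the 3 populations together was 0.0454. The peak lay inside the gene at chrX:144525723-144526784, 162 kb from the gene's listed start. With each peak given only to its nearest start, the Trpc5 value was -0.62 (adjusted p = 0.132).

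Other top loci belonged to genes of receptors and adhesion. Itga2, the collagen-binding integrin alpha 2 chain of platelets, had ranks of 985 and 932 in C10, 4421 and 3748 in C2, 8453 and 10154 in C18, and 4520 and 6642 in C13. The C10 peak lay at chr13:114914511-114917075, 16.2 kb into the gene, and the groups did not overlap (2.63 ± 0.26, limma adjusted p = 0.00089). At that site the C2 libraries ranked 5505 and 4375, C13 4520 and 6642, and C18 9103 and 14392, so the peak was listed in all 8 libraries and strongest in C10. At the start of Itga2 the separation was smaller, with ranks of 3082 and 4192 in C10 and 3748 to 12049 in the others, where C10 and C2 overlapped.

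Pgr, the progesterone receptor gene, ranked 1827 and 2091 in C10 and between 8640 and 19648 in the other 6 libraries (2.57 ± 0.28, adjusted p = 0.00112). Pcdh7, a protocadherin gene, ranked 388 and 413 in C10, 1395 and 2011 in C2, 5993 and 2209 in C18, and 10248 and 11800 in C13. Lgr4, a receptor for R-spondins that heightens Wnt signalling, ranked 27 and 32 in C10, 107 and 179 in C2, 616 and 772 in C18, and 104 and 172 in C13. At all 3 genes C10 stood apart, but the next population differed: C2 was nearest at Pcdh7, C18 replicate 2 at Pgr and C13 replicate 1 at Lgr4. Gucy1b1 encodes the beta subunit of the guanylate cyclase that senses nitric oxide, and its ranks were 1832 and 1758 in C10 and 5653 to 9962 elsewhere. The locus of its partner subunit, Gucy1a1, stood only just inside the rule, as given above.

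Ctla2a, which encodes an inhibitor of cathepsin-like proteases, had ranks of 29 and 27 in C10, 96 and 323 in C2, 2396 and 1839 in C18, and 1072 and 1271 in C13. C2 was closest to C10 there, and its replicates differed from each other by more than those of C10. Crem, a transcription factor gene of the cAMP response, ranked 95 and 102 in C10 and 336 to 2241 in the others. In none of the other 6 libraries was the best peak of the Crem locus at the site of the C10 peak. The remaining top loci were Csmd3 (ranks of 87 and 116 in C10, 691 to 4746 elsewhere), a large membrane protein gene, Zfp831 (196 and 163 against 899 to 1811), a zinc finger gene, and Ppa2 (4 and 7 against 33 to 676), which encodes the mitochondrial pyrophosphatase. The Ppa2 peak was thus among the strongest 10 of the whole list in both C10 libraries. All 12 of these loci were called higher by limma, with adjusted p from 0.00019 to 0.00269.

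**Figure D1:**
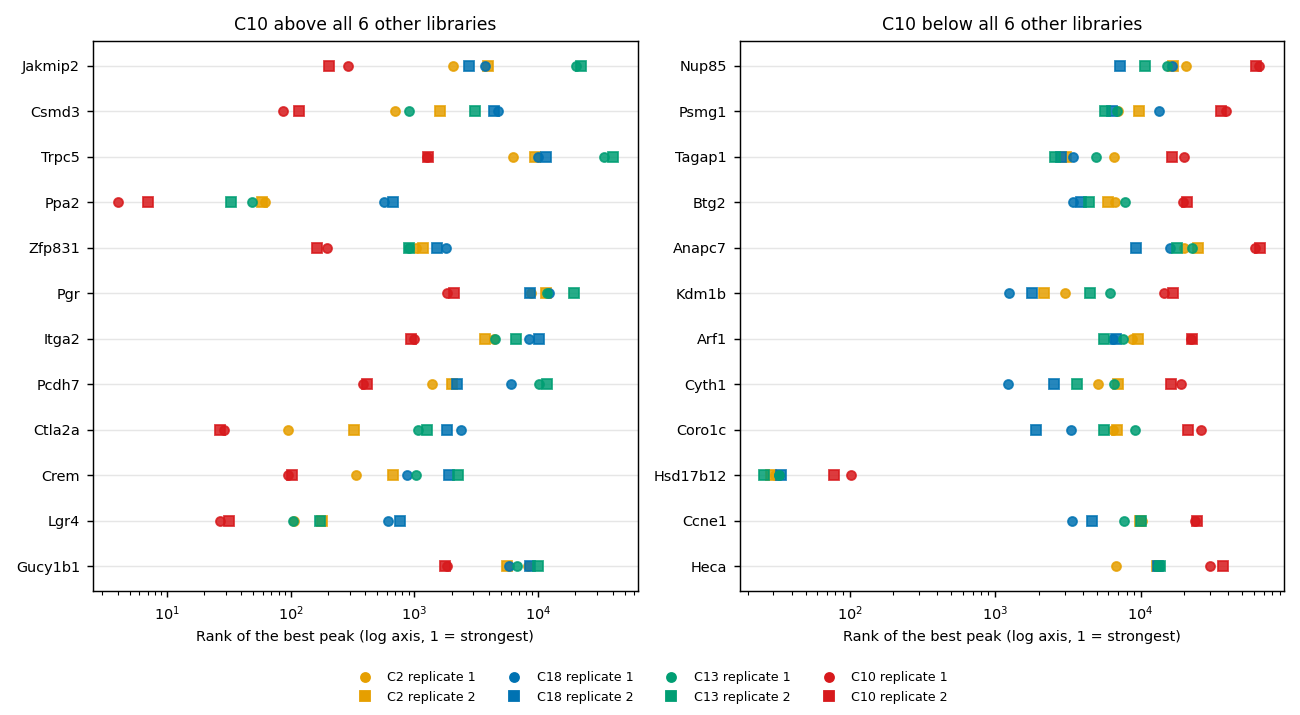
Rank of the best F-Seq peak on a log axis (1 is the strongest) for the 12 loci with the widest separation on each side, by library; colours mark populations, circles replicate 1 and squares replicate 2. Both C10 libraries lie left of the other 6 in the left panel, as at Jakmip2 (292 and 205 against 2060 or more), and right of them in the right panel, as at Nup85 (65068 and 62346 against 20650 or less).

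Below all others, the widest separation was at Nup85, a gene of the nuclear pore. Ranks were 65068 and 62346 in C10, 20650 and 16815 in C2, 16405 and 7253 in C18, and 15217 and 10671 in C13. The difference was -2.21 ± 0.31 (SE, limma adjusted p = 0.0026). At the site of the strongest of these peaks, however, C13 ranked 85744 and 76861, weaker than C10. The C13 value of this locus thus came from another peak.

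The same held at several of the top loci below. At Btg2, a gene that restrains proliferation, the locus ranks were 19532 and 20813 in C10, 6654 and 5939 in C2, 3434 and 3919 in C18, and 7857 and 4391 in C13. At its start the C2 and C18 libraries kept those ranks, while C13 ranked 27931 and 21729 and C10 29067 and 20813, so C10 and C13 overlapped at the start. Anapc7, a subunit gene of the anaphase-promoting complex, ranked 61123 and 65725 in C10 and 9276 to 24818 elsewhere as a locus, and 76639 and 71338 in C13 at the start. Cyth1, which activates Arf GTPases, ranked 18838 and 16080 in C10 as a locus and 1225 to 6994 elsewhere, while at its start C13 ranked 36179 and 43060 beside 34475 and 27674 in C10. C13 also ranked 17725 and 28373 at the start of Ccne1, the cyclin E1 gene of entry into S phase, beside 23519 and 27866 in C10. In the locus ranks of Ccne1, C10 had 23519 and 24326, C2 10299 and 9960, C18 3390 and 4615, and C13 7685 and 10002.

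At Psmg1, Tagap1 and Arf1 the roles were exchanged, with C13 holding the strong peak. Psmg1, a proteasome assembly gene, ranked 38792 and 35570 in C10 and 5685 to 13410 elsewhere, and at the C13 site, 3.79 kb from the start, C13 ranked 6897 and 5685 and the other 6 libraries 36632 or weaker. Arf1, a GTPase gene of the Golgi, ranked 22212 and 22571 in C10 and 5607 to 9553 elsewhere, and at the C13 site C2 ranked 26253 and 24568. Tagap1, a gene for a GTPase-activating protein, ranked 19985 and 16548 in C10 and 2567 to 6552 elsewhere. At the C13 sites of these 3 loci both C10 libraries ranked weaker than C13, and the locus ranks of C2 and C18 came from other peaks. Against C2 and C18 the C10 libraries did not stand below at those sites: at Arf1 they ranked 22212 and 22571, beside 25108 and 67661 in C18, and at Tagap1 30770 and 23391, beside 44395 and 25694 in C2.

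A single site separated C10 at fewer of the 12 loci. Hsd17b12, a gene of fatty acid elongation, ranked 103 and 78 in C10 and 26 to 34 in the other 6 libraries at the same start peak, and limma did not call it (-1.54 ± 0.51, adjusted p = 0.0527). Coro1c, a gene of actin binding, ranked 26597 and 24753 at its start in C10 and 1903 to 15960 in the others. Kdm1b, a histone demethylase gene, ranked 14530 and 16726 in C10 and 1255 to 6171 elsewhere as a locus, but 11712 and 16148 in C13 at its start. Heca ranked 29846 and 36713 in C10 and 6749 to 13683 elsewhere as a locus. At the site of its strongest peak, however, C13 was weaker than C10. There C10 ranked 56025 and 41181, C13 replicate 2 ranked 94839, and C13 replicate 1 had no listed peak.

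Over all loci below, C10 stood below all 6 others also at the site of the strongest peak of another library for 696 of 1376 (50.6%). Of the 680 that overlapped at that site, C13 alone overlapped with C10 at 356 (52.4%), C18 alone at 75 and C2 alone at 24. For the loci above, a site was picked where C10 replicate 1 was strongest. The other libraries can only be as strong there as in the locus or weaker. The like count is thus largely fixed by the rule and is not given. It can change only where the best peak of C10 replicate 2 lies elsewhere in the locus. The best peaks of the 2 C10 libraries overlapped at 96.9% of the loci above, 77.8% of those below and 84.7% of all loci. Nearest to C10 was most often a C2 library at the loci above (657 of 1263) and a C13 library at the loci below (868 of 1376).

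Position relative to gene starts also differed. A start is listed for 1014 of the loci above, 1099 of those below and 14703 of all compared. The best peak was that of C10 replicate 1 at loci above and that of the strongest other library at loci below. At the remaining loci it was that of the strongest of all 8 libraries. It lay within 1 kb of a start at 44.0% of loci above (446), 68.4% of loci below (752) and 57.5% of all loci (8456). It lay over 50 kb away at 10.2% above, 1.91% below and 4.73% of all. Read the other way, loci with their best peak at a start were above in 5.27% and below in 8.89%, and loci with a distal best peak were above in 9.09% and below in 5.55%. Loci above thus had a distal best peak more often, and loci below a start peak. The library that gave the peak differs between the sets, and libraries differ in their share of start peaks. The part of that choice in this contrast was not tested.

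How much of each list's top was taken by starts differed between libraries. Of the 10000 strongest peaks, 36.9% and 36.3% lay within 1 kb of a start in C10, 33.5% and 32.0% in C13, 46.3% and 47.2% in C2, and 50.4% and 52.4% in C18. A rank is relative to the rest of its list, so a list with fewer strong start peaks gives start peaks weaker ranks. Ranked among start peaks alone, C10 stood above all others at 1059 of 13014 loci (8.14%) and below at 784 (6.02%), so that the excess below turned to an excess above. Ranked among distal peaks alone, it stood above at 977 of 17719 loci (5.51%) and below at 1039 (5.86%). This ranking was chosen after seeing the data. Jakmip2, Csmd3, Trpc5, Ppa2, Pgr and Itga2 remained above among distal peaks, and Ctla2a, Lgr4 and Gucy1b1 among start peaks. Each of the 12 top loci above was again above in at least 1 of these rankings. Of the 12 top loci below, 4 were below in neither (Nup85, Tagap1, Anapc7 and Arf1), and the other 8 were below in at least 1, Btg2 among distal peaks and not among starts.

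**Figure D2:**
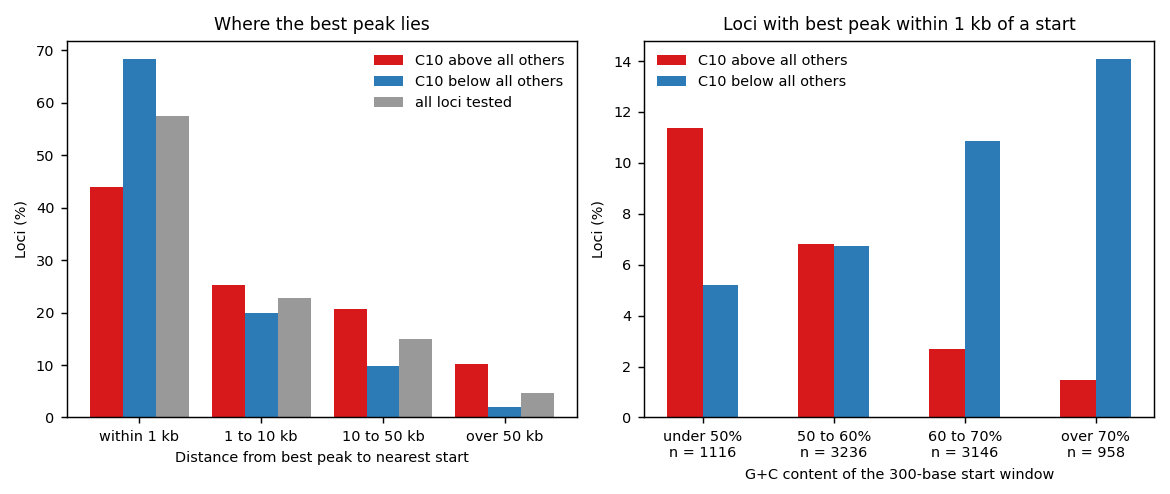
Left, share of loci (%) by distance from the best peak to the nearest start, for loci with C10 above, loci with C10 below and all loci; right, share of loci with C10 above or below by G+C content of the 300-base start window, for loci with a start peak. The best peak is that of C10 replicate 1 at loci above and that of the strongest other library at loci below. Loci below gather at starts (68.4% within 1 kb against 44.0% above), and with rising G+C content the share above falls from 11.4% to 1.46% while the share below rises from 5.20% to 14.1%.

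Base composition went with the side at starts. The reference windows reach from 250 bases before to 50 bases after a start. Among the 8456 loci with a start peak, by the same choice of library, the median G+C content was 54.2% for those above, 63.1% for those below and 60% for all. With a G+C content up to 50%, C10 was above at 127 of 1116 loci (11.4%) and below at 58 (5.20%), and over 70% it was above at 14 of 958 (1.46%) and below at 135 (14.1%). Across these loci the Spearman correlation of G+C content with rank was 0.0095 and 0.018 in C10 and between -0.127 and -0.023 in the 6 other libraries, a description across loci of the same genome. G+C content also affects amplification of a library, and its part in the start peaks was not tested.

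Starts under the best peaks of leading loci are printed as examples, and not all of them show this contrast. The 6 windows printed here are the first 3 of each side of the 24 loci named above whose best peak covers their own start window, from RefSeq on GRCm38.p6, 5′ to 3′ on the gene's strand. Capitals mark the GC box (GGGCGG) and the ETS core (CCGGAA) on either strand. The first 3 belong to loci where C10 stood above.
Ctla2a, chr13:60936517-60936816, minus strand: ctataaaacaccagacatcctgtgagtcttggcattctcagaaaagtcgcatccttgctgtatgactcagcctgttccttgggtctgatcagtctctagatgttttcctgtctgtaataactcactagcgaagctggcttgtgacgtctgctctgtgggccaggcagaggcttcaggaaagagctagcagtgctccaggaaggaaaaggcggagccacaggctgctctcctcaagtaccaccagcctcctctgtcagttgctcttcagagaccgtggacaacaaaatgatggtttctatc
Lgr4, chr2:109917397-109917696, plus strand: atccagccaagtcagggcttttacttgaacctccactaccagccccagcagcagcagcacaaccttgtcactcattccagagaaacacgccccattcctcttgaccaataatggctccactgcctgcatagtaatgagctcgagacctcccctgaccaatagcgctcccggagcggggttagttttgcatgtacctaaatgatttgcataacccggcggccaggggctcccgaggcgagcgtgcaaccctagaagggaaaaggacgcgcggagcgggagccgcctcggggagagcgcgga
Gucy1b1, chr3:82074662-82074961, minus strand: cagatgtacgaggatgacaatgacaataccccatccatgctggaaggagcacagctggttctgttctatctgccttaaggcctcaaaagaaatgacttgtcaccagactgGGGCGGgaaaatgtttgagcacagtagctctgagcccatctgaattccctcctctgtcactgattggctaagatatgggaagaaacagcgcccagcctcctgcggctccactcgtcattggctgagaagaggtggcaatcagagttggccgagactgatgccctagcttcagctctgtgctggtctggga
The next 3 belong to loci where C10 stood below. At these 3 starts themselves C10 did not stand below C13: the 2 overlapped at Btg2 and Kdm1b, and C13 was weaker at Anapc7.
Btg2, chr1:134079106-134079405, minus strand: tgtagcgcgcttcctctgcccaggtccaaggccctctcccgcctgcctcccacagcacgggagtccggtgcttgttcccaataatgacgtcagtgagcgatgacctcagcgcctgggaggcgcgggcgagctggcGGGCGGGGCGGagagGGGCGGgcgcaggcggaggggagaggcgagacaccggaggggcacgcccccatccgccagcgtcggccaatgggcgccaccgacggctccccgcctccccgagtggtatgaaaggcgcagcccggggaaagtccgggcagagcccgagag
Anapc7, chr5:122422194-122422493, plus strand: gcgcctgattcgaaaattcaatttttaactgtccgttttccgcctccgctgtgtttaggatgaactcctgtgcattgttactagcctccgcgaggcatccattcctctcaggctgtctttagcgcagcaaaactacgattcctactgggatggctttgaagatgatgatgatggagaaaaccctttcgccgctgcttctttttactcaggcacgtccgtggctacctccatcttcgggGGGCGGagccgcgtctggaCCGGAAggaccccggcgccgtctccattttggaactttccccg
Kdm1b, chr13:47043249-47043548, plus strand: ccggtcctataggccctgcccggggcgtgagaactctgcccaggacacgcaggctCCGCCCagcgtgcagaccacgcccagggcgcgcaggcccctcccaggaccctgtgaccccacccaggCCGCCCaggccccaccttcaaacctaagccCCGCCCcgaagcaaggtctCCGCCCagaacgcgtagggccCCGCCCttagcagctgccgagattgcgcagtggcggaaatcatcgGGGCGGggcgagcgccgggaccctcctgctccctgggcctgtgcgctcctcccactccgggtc

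G+C content was 50.3%, 58.3% and 52.3% in the windows of Ctla2a, Lgr4 and Gucy1b1, and 72%, 53.7% and 72.3% in those of Btg2, Anapc7 and Kdm1b, with Anapc7 inside the range of the first 3. The GC box occurred 6 times in Kdm1b, 3 times in Btg2, and once each in Anapc7 and Gucy1b1. Best peaks again came from different libraries at loci above and below. Over all windows under a best peak, GGGCGG on either strand was present in 43.3% of 448 windows above, 75.6% of 661 below and 65.8% of 7417 of all loci compared, beside 52.8% of the 18312 windows of the reference. CCGGAA, the ETS core, was in 26.6% above, 36.0% below and 32.3% of all, beside 21.1% of the reference. AGATAA, the GATA motif, was in 8.48% above (38 windows), 4.08% below (27) and 5.95% of all, beside 8.07%. CCAAT, the CCAAT box, was in 51.8% above, 35.2% below and 43.0% of all, beside 37.3%. TGTGGT, the RUNX core, was in 16.3%, 11.5% and 12.01%, beside 13.7%, and TGACGTCA, the cAMP response element, in 3.12%, 2.87% and 3.69%, beside 2.50%. GGGCGG and CCGGAA, rich in G and C, were thus less frequent above than below, and AGATAA and CCAAT, rich in A and T, more frequent. That is the order that G+C content itself has. TGTGGT was also more frequent above, and TGACGTCA was less frequent on both sides than in all. Matches of different motifs can overlap by a few letters and were counted separately, and a match is a description of letters only.

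Loci of the megakaryocyte list stood above more often than below. Of 29 loci, 5 were above (17.2%, beside 6.84% of all) and 0 below (beside 7.45%). Limma called 5 higher (17.2%, beside 6.8% of all) and 0 lower (beside 15.6%). By HOMER rank 5 of 28 were above (17.9%, beside 7.47% of all) and 1 below (3.57%, beside 6.89%). The list's median difference was -0.00042, beside -0.20 for all loci, and its members ranged from -0.81 to 2.23, with 14 of 29 above 0. Rab27b, a GTPase of platelet granule release, ranked 1283 and 1654 in C10, 3946 and 5354 in C2, 7613 and 6138 in C18, and 9410 and 7036 in C13. Its difference was 2.12 ± 0.27 (SE, limma adjusted p = 0.00187).

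Mmrn1, encoding multimerin of the platelet alpha granule, ranked 2468 and 3481 in C10, 6339 and 18354 in C2, 9999 and 5909 in C18, and 26523 and 36564 in C13. C10 was strongest, although the C2 replicates were far apart. Plek, encoding pleckstrin, the protein kinase C substrate of platelets, ranked 628 and 597 in C10 and 982 to 4056 elsewhere. Treml1, a receptor of platelet alpha granules, ranked 35714 and 36429 in C10 and 51884 or weaker elsewhere, with no listed peak in C13. HOMER lists gave Treml1 a difference of 0.23 (adjusted p = 0.209). With 50 kb to each side, Treml1 took other peaks and its difference was -1.62 (adjusted p = 0.00247). The remaining locus above was Vwf, the von Willebrand factor gene, named here after its values were seen (2120 in both C10 libraries and 2563 to 5798 elsewhere, 0.86 ± 0.30, limma adjusted p = 0.0623). Selp, encoding P-selectin, was called higher by limma (1.02, adjusted p = 0.0308) without standing above all libraries.

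By non-overlap, the share of erythroid loci above was near that of all loci, and the share below was under it. Of 33, 2 were above (6.06%, beside 6.84% of all) and 1 below (3.03%, beside 7.45%). Limma called 5 higher (15.2%, beside 6.8% of all), among them Gypc, Rhag, Kel and Car1, and 6 lower (18.2%, beside 15.6%), among them Tfrc, Slc4a1, Epb41, Hemgn and Fech. Rhag, the Rh-associated glycoprotein of the red cell membrane, ranked 1279 and 1101 in C10, 2801 and 5572 in C2, 4829 and 4280 in C18, and 29854 and 38817 in C13. C13 stood far behind the other populations (2.84 ± 0.30, limma adjusted p = 0.00102). The peak lay 4.31 kb before the start at chr17:40806137-40807495. Ranks at that site were 57032 and 64937 in C13, and the peak of Rhag that C13 ranked highest lay 13.6 kb into the gene. At the start of Rhag itself C18 was the stronger, with 32144 and 8153 beside 61180 and 32697 in C10. Gypc, glycophorin C, ranked 1851 and 1340 in C10, 2042 to 5143 in C2 and C18, and 22643 and 25659 in C13. Hemgn, a nuclear protein of erythroid cells, was below (13671 and 13200 in C10, 2945 to 11697 elsewhere, limma adjusted p = 0.031), but its best peak lay within 266 bases of the start of another gene. Counting only the body of Hemgn, the difference was 0.28 (adjusted p = 0.547). Tfrc, the transferrin receptor (-1.06, adjusted p = 0.0176), and Slc4a1, the anion exchanger of the red cell (-1.28, adjusted p = 0.0197), were lower by limma.

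**Figure D3:**
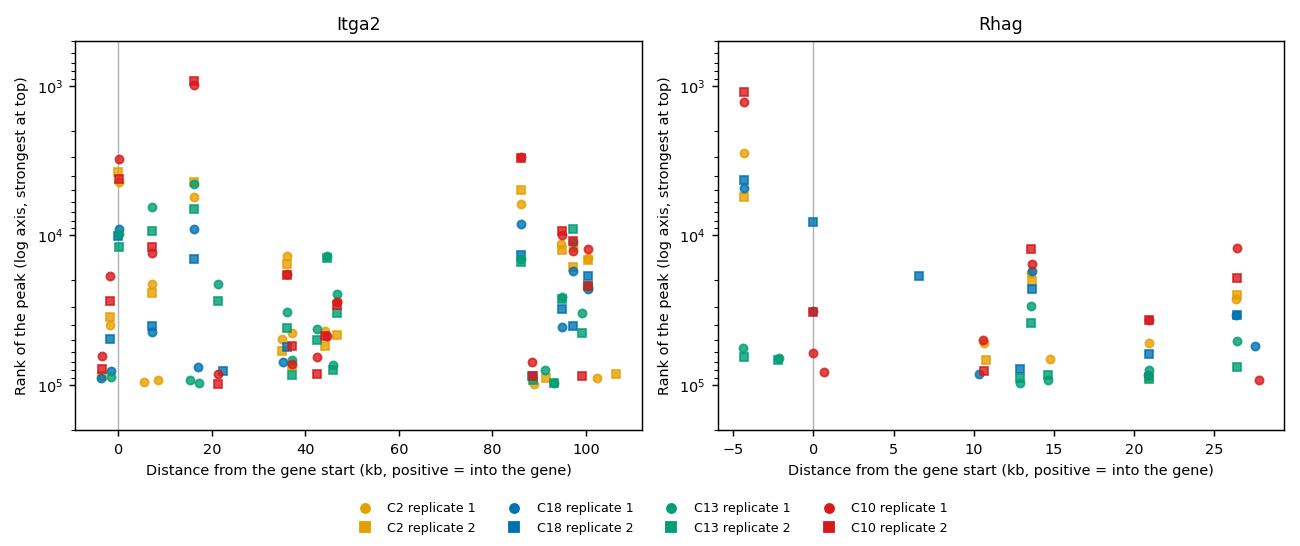
All F-Seq peaks of 2 loci by distance from the gene start (kb) and rank (log axis, strongest at the top), coloured by population; circles are replicate 1 and squares replicate 2. At Itga2 the C10 peaks 16.2 kb into the gene (985 and 932) lie above those of all others, and at Rhag the peak 4.31 kb before the start ranks 1279 and 1101 in C10 and 57032 and 64937 in C13.

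No locus of the granulocyte and monocyte list stood above. Of 27, 0 were above and 4 below (14.8%, beside 7.45% of all), and the median was -0.51, beside -0.20. Limma called 0 higher (beside 6.8% of all) and 4 lower (14.8%, near the 15.6% of all). By HOMER rank 2 of 26 were below (7.69%), near the 6.89% of all. Fcgr1, the high-affinity IgG receptor gene, ranked 17039 and 14515 in C10, 9135 and 7211 in C2, 782 and 588 in C18, and 13741 and 6972 in C13, so C18 carried most of the difference (-2.06 ± 0.30, limma adjusted p = 0.00282). Without C18 the difference of Fcgr1 was -0.82 (adjusted p = 0.0846), and with HOMER lists it was -0.83 (adjusted p = 0.111). Its best peak lay beyond the gene's end. Gfi1, a repressor that acts in granulocyte development, ranked 27734 and 32950 in C10 and 12127 to 18826 elsewhere (-0.95 ± 0.25, adjusted p = 0.0218). S100a9, a calcium-binding protein of neutrophils, ranked 67214 and 68077 in C10 and 7352 to 48323 elsewhere (-1.46 ± 0.36, adjusted p = 0.017). At the start of S100a9, where its strongest peak lay, neither the C10 nor the C13 libraries had a listed peak. HOMER lists gave S100a9 a difference of -0.76 (adjusted p = 0.272) and Gfi1 one of -0.85 (adjusted p = 0.0645). Irf8, an interferon regulatory factor active in monocytes, ranked 37456 and 38438 against 18088 to 34095 and was not called (limma gave it 0.213 after adjustment). These directions depend on which peaks belong to a locus: with 50 kb to each side Gfi1 was at 1.46 (adjusted p = 0.00573) and S100a9 at 0.13 (adjusted p = 0.791), and with the gene body alone Fcgr1 was at 0.29 (adjusted p = 0.419).

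Markers of other blood cells gave smaller counts. Of 21 mast cell, basophil and eosinophil loci, 3 were above (14.3%, beside 6.84% of all) and 0 below. Fcer1a, the IgE receptor alpha chain, ranked 34917 and 32038 in C10 and 42112 or weaker elsewhere, and Cd200r3, a receptor of mast cells and basophils, ranked 2265 and 2148 against 2674 to 6999 (limma adjusted p = 0.00866 and 0.0197). Siglecf, a lectin of eosinophils, ranked 4364 and 5172 against 5840 to 10200 and was not called (adjusted p = 0.0981). Of 27 lymphoid loci, 0 were above and 3 below (11.1%, beside 7.45% of all), among them Cd22 and Cd79b, of the B cell receptor complex or its regulators. By HOMER rank the balance was the other way, with 2 above and 1 below of 26. Cd79b, a signalling chain of that receptor, ranked 61520 and 44136 in C10 and 17954 to 42558 elsewhere (-0.92 ± 0.26, limma adjusted p = 0.0305), with C2 replicate 1 next to C10. In contrast, limma called Rag1 and Rag2, neighbours that share a peak, higher (1.29, adjusted p = 0.0138), along with Lef1 (1.20, adjusted p = 0.0185). Cd22 had a value of 0.31 (adjusted p = 0.27) when only its gene body was counted.

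Cells that the sort should not hold were checked through their markers. Of 16 macrophage loci, Cd163 and Vsig4 were above (12.5%, beside 6.84% of all) and 0 below. Of 17 stromal and endothelial loci, 3 were above (Cxcl12, Col1a2 and Emcn) and 3 below (Pecam1, Eng and Col1a1), 17.6% each way, beside 6.84% and 7.45% of all. Of 17 loci of non-haematopoietic genes, 2 were above (11.8%, beside 6.84% of all), Ttn of striated muscle and Pax6 of eye and brain. None was below (beside 7.45% of all). Limma called 3 higher (17.6%, beside 6.8% of all) and 1 lower (5.88%, beside 15.6%). By HOMER rank 3 of 13 were above (23.1%, beside 7.47% of all) and 0 below (beside 6.89%). Ttn ranked 8036 and 8006 in C10 and 12021 to 29241 elsewhere (1.26 ± 0.25, limma adjusted p = 0.00745). Pax6 ranked 7630 and 10560 against 12237 to 31844 (1.14 ± 0.24, adjusted p = 0.00913). Loci of genes without a role in blood thus stood above in 11.8%, beside 17.2% of the megakaryocyte list, and no test compared the 2 shares.

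Of 18 housekeeping loci, 0 were above and 3 below (16.7%, beside 7.45% of all), among them Hsp90ab1 and Gapdh. Limma called 0 higher and 5 lower (27.8%, beside 15.6% of all). The median was -0.53, beside -0.20 for all, and 4 of the 18 had a positive difference, up to 0.75. By HOMER rank 1 was above and 2 below. Hsp90ab1, a chaperone gene, ranked 28218 and 21220 in C10, 7525 and 8092 in C2, 6295 and 3700 in C18, and 12549 and 10929 in C13 (-1.68 ± 0.27, limma adjusted p = 0.00384). Gapdh, of glycolysis, ranked 1821 and 1838 against 766 to 1783 and was not called (adjusted p = 0.212). Libraries differed in their share of start peaks among the strongest 10000, as given above, and its part in this list was not tested.

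**Figure D4:**
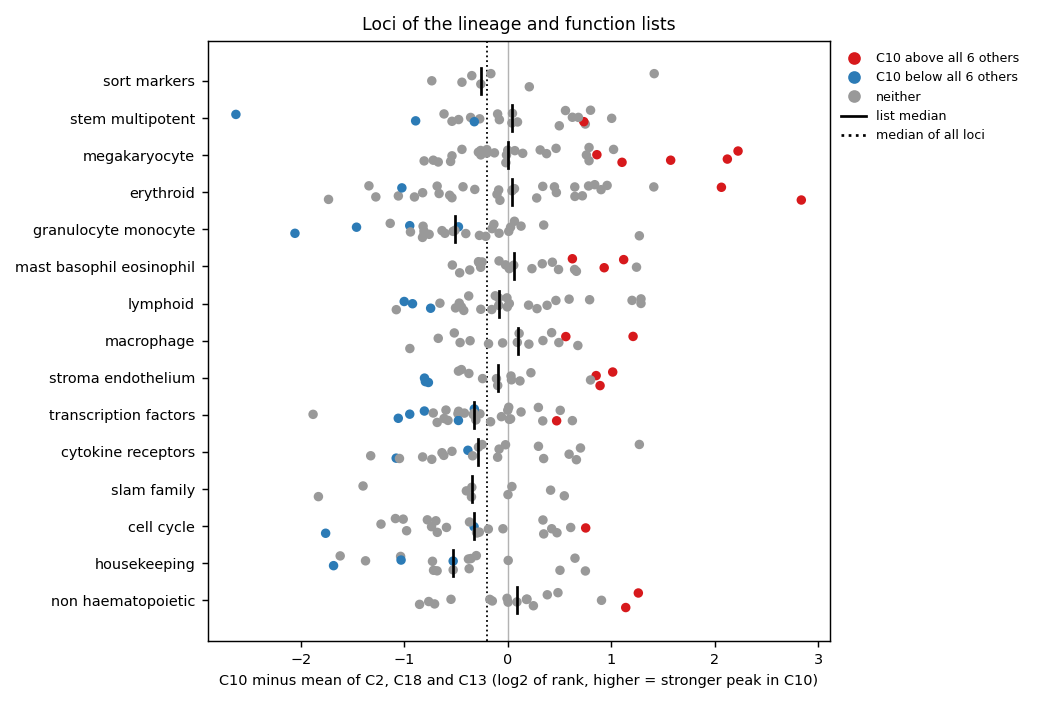
Difference of C10 from the mean of C2, C18 and C13 in log2 of rank for the loci of each list (points; positive is stronger in C10), with the list median (bar) and the median of all loci (dotted line, -0.20). Red points are above all 6 other libraries and blue points below; the megakaryocyte row has 5 red and 0 blue points, the granulocyte and monocyte row 0 red and 4 blue, and the housekeeping row has a median of -0.53.

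Of 30 transcription factor loci, 5 were below (16.7%, beside 7.45% of all) and 1 above (3.33%, beside 6.84%), with a median of -0.32, beside -0.20. Limma called 3 lower, 10% of the list and under the 15.6% of all, and 0 higher. Those below were Gfi1, Irf8, Lyl1, Myb and Erg, and the one above was Bcl11a, the repressor of fetal globin, at 3246 and 4072 in C10 and 4262 to 6140 elsewhere (adjusted p = 0.207). Myb, a factor of progenitor growth, ranked 44601 and 36416 in C10 and 10730 to 33666 elsewhere (-1.06 ± 0.30, limma adjusted p = 0.0313). Lyl1 ranked 7095 and 7127 against 3262 to 6107 (adjusted p = 0.0571), and Erg 8439 and 8244 against 4638 to 7929 (adjusted p = 0.338). At the site of the strongest peak of another library, Lyl1 and Gfi1 kept their locus ranks. At that site of Myb, C10 (57141 and 36416) overlapped C13 (38354 and 40987), and at that of Irf8 it overlapped C2 replicate 1. At the Erg site C13 ranked 34547 and 30989 and C18 replicate 1 ranked 14929, weaker than C10 (10078 and 8244). Zfpm1, the GATA partner FOG1, was called lower (-1.88, adjusted p = 0.00291) but did not stand below every library.

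Of 21 stem cell and multipotency loci, 1 was above (4.76%, beside 6.84% of all) and 3 below (14.3%, beside 7.45%), and limma called 1 higher and 2 lower (9.52%, beside 15.6%). Angpt1, a ligand of the receptor TIE2, ranked 3747 and 2789 in C10 and 4043 to 6800 elsewhere (adjusted p = 0.0757). Msi2, an RNA-binding protein of stem cells, ranked 20020 and 17746 in C10, 13738 and 11742 in C2, 99 and 211 in C18, and 16093 and 14759 in C13. A peak 167 kb from the start of Msi2, strong in C18, carried most of this difference (-2.63 ± 0.30, adjusted p = 0.00136). The call on Msi2 ended with HOMER lists (-0.45, adjusted p = 0.265) and without the C18 libraries (-0.43, adjusted p = 0.213). Hoxb5 ranked 30421 and 24041 against 9685 to 21928 (-0.89 ± 0.25, adjusted p = 0.0283). Of 21 cytokine receptor loci, 0 were above and 2 below (9.52%, beside 7.45% of all), and limma called 0 higher and 3 lower (14.3%, beside 15.6%). Il6ra ranked 15554 and 10740 against 2690 to 10323 (-1.08 ± 0.29, adjusted p = 0.0249), and Il4ra 7530 and 7479 against 4755 to 6610 (adjusted p = 0.252). Of 23 cell cycle loci, Mcm3 was above (4.35%, beside 6.84% of all) and Ccne1 and Ccnb1 below (8.70%, beside 7.45%). Limma called 0 higher and 4 lower (Mki67, Ccne1, Pcna and Cdkn1a), which is 17.4%, near the 15.6% of all.

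By F-Seq rank, none of the 7 loci of the sort markers and none of 9 SLAM family loci stood above or below all others. By HOMER rank, C10 stood above all 6 at 1 sort marker, Cd34 (14.3%, beside 7.47% of all), and at no SLAM family locus. Limma called 1 of the 7 higher (14.3%, beside 6.8% of all) and 0 lower (beside 15.6%). Of the 9 SLAM family loci, it called 0 higher and 2 lower (22.2%, beside 15.6% of all). Cd48, bright on C10 cells, ranked 34396 and 24077 in C10, 27143 and 24306 in C2, 24797 and 15746 in C18, and 23702 and 21885 in C13, so the groups overlapped (-0.35 ± 0.25, limma adjusted p = 0.339). Itga2b, encoding CD41, ranked 15590 and 14854 in C10, 13288 and 9733 in C2, 9259 and 6243 in C18, and 21571 and 26042 in C13, where the population sorted as CD41- was weakest. Cd34 ranked 974 and 1504 in C10, 1883 and 1771 in C2, 9181 and 11989 in C18, and 1202 and 2571 in C13. Limma called Cd34 higher (1.42 ± 0.33, adjusted p = 0.0154), with C18 the weakest and C13 overlapping C10, although C10 was sorted as CD34dim. With HOMER lists the difference of Cd34 was 1.86 (adjusted p = 0.0214), and without the C18 libraries it was 0.57 (adjusted p = 0.321), which ended the call. Kit was not called, with 11121 and 8762 in C10 and 4056 to 9748 elsewhere (-0.73 ± 0.25, adjusted p = 0.0561). Cd9, Fcgr3 and Fcgr2b were not called either, with differences of -0.44, -0.16 and 0.21.

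Loci above and below were spread unevenly over the chromosomes. On the X chromosome 92 of 625 loci (14.7%) were above and 16 (2.56%) below. On chromosome 11, 49 of 1463 (3.35%) were above and 198 (13.5%) below, and on chromosome 13, 79 of 706 (11.2%) were above. In the peak lists as a whole, the X chromosome held 2.53% and 2.59% of the C10 peaks, 2.47% and 2.52% of the C13 peaks, and 1.67% to 1.97% of those of C2 and C18. Among the 10000 strongest peaks C10 did not stand out there, with 2.41% and 2.16%, beside 2.48% and 2.36% in C18, 2.08% and 2.10% in C2, and 2.18% and 1.79% in C13. Chromosome 11 held 5.21% and 5.59% of the C10 peaks and 5.62% to 6.67% of those of the other 6 libraries. Of the 10000 strongest, it held 3.69% and 4.07% in C10, 3.67% and 4.33% in C13, and 5.45% to 7.13% in C2 and C18. The median G+C content of start windows was 56.0% on the X chromosome, 59.3% on chromosome 11 and 58.7% over all loci with a start, and its part in these shares was not tested. Among the loci named above, Trpc5 and Vsig4 lie on the X chromosome and were above. On chromosome 11, Nup85, Arf1, Cyth1, Msi2, Hoxb5, Cd79b, Pecam1 and Col1a1 were below, Plek and Bcl11a were above, and Itga2b was neither.

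**Figure D5:**
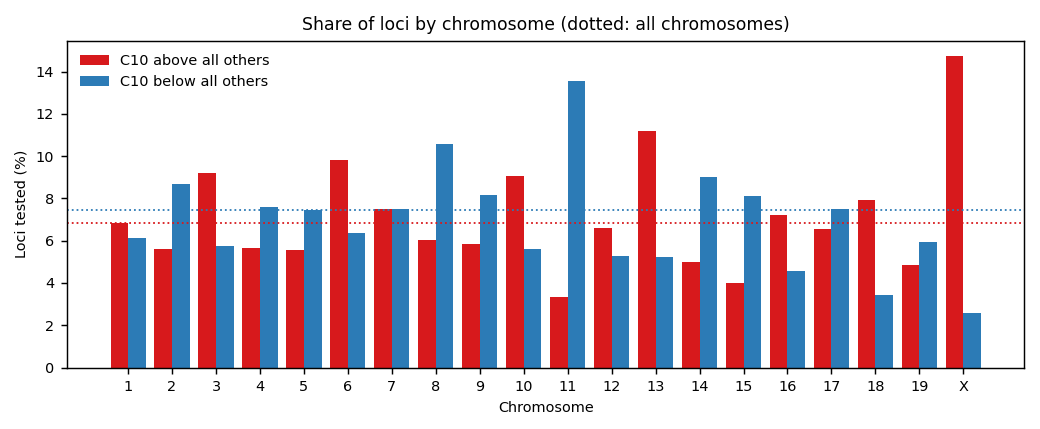
Share of compared loci (%) on each chromosome where C10 stood above (red) or below (blue) all 6 other libraries, with the share over all chromosomes as dotted lines (6.84% and 7.45%). Of the 20 chromosomes drawn (Y, with 5 loci, is left out), X has the highest share above (14.7%) and the lowest below (2.56%), and chromosome 11 the reverse (3.35% and 13.5%).

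Gene families, taken by the shared start of their symbols where at least 30 loci were compared, also differed. Shares over all loci compared were 6.84% above and 7.45% below. Zinc finger genes named Zfp were above at 68 of 373 loci (18.2%) and below at 14 (3.75%), with a median difference of 0.14. Olfactory receptor genes, which have no known role in blood formation, were above at 35 of 238 (14.7%) and below at 1 (0.42%). Trim genes were above at 11 of 67 (16.4%) and below at 5 (7.46%, near the share of all). The families most often below were those of the mitochondrial ribosome (Mrpl), of vesicle sorting (Vps) and of kinesins (Kif). Mrpl genes were below at 10 of 49 (20.4%) and above at 1 (2.04%), with a median of -0.61. Vps genes were below at 6 of 35 (17.1%) and above at 3 (8.57%). Kif genes were below at 6 of 37 (16.2%) and above at 1 (2.70%). Members of a family often lie side by side and can share peaks, so their loci are not independent.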

How the data were processed

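Per the submitters' processing notes the build was mm10, with Bowtie 1.0.0 and HOMER 1.0 named; for F-Seq the version was not given in the sources used here. In all, the authors deposited 16 peak lists, called per library: F-Seq lists with a signal (peak height) and HOMER lists with 150-base peaks and unlabelled score columns. Both served only to rank peaks within a list. Loci were gene bodies of RefSeq on GRCm38.p6 with 10 kb to each side; a locus without a peak took rank 100001. Starts were listed for 17492 of 21887 loci. Ranks on the scale of minus log2 were fitted with limma 3.58.1 (R 4.3.3) with 4 group means, a trended eBayes step and Benjamini-Hochberg adjusted p under 0.05, and the fit was tested on simulated data. Tables were made with Python 3.11.15, numpy 2.4.6 and pandas 2.3.3. Named loci were the 12 with the widest separation on each side (unnamed gene models left out, nearest start kept where a peak was shared), up to 4 per list and side, the sort markers, and 2 loci just inside and outside. Members and lists were chosen with earlier results of these data known. Some loci are not reported here. Alternatives are given in the closing section.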

Additional observations from a re-analysis of the deposited data

How the results depend on the processing

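The non-overlap counts were 1263 above and 1376 below, and the limma counts 1255 higher and 2876 lower. With 2 kb around the start, 687 loci were above and 587 higher. With each peak given to its nearest start, 796 were higher and 1338 lower, with HOMER lists 1720 lower, with no filter on loci 690 and 1635, with ranks not logged 770 and 1770, and without the C18 libraries 1392 lower. A fit of 2 groups called 0 and 0, and the test against each of 3 populations, chosen after seeing the data, 2 and 0. Ranking start peaks alone, also chosen later, gave 784 below. Leaving out 1 library at a time gave 1351 to 2328 above, 1461 to 3165 below, 45 to 1657 higher and 19 to 4010 lower. The highest non-overlap and the lowest limma counts came without a C10 library, and the highest limma counts without C18 replicate 1. The lowest count above came without C13 replicate 2, and the lowest below without C2 replicate 2. With 1 C10 library left, it was assumed to vary like the other groups. Deviations of libraries with equal replicate numbers correlated from 0.00196 (C2 and C18) to 0.404 (C13 and C10) over pairs of populations. The labels do not say if equal numbers mark a shared batch. A replicate block gave 1454 higher and 3386 lower. The other alternatives kept each count within 1.5 times.

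Of 70 named differences, 51 were called. A fit of 2 groups kept 0 of these 51, no filter on loci 37, and 50 kb to each side 38 with call and direction. With the nearest start 20 of 39 were kept, and with 2 kb around the start 26 of 38. Among settings with both C10 libraries and 4 groups, the limma adjusted p rose as high as 0.905 at Rhag, 0.859 at Heca, 0.781 at Plek and 0.493 at Kdm1b. At Itga2 it stayed at 0.0185 or lower. Leaving out C10 replicate 1 ended 40 of these calls, and C10 replicate 2 ended 21. HOMER lists ended those of Msi2, Hoxb5, Treml1, Gfi1, S100a9, Fcgr1, Cd22, Cd79b, Eng, Myb and Il6ra, and leaving out C18 those of Cd34, Msi2, Hoxb5, Hemgn, Fcgr1, Cd200r3, Eng and Col1a1, each in the same direction. The following changed direction. With 50 kb to each side, values were -1.62 for Treml1, 1.46 for Gfi1, 0.13 for S100a9 and -0.074 for Col1a2. With the nearest start they were -0.62 for Trpc5, 1.46 for Gfi1 and 0.23 for S100a9. With the gene body alone they were 0.60 for Fcgr3, 0.28 for Hemgn, 0.29 for Fcgr1 and 0.31 for Cd22, and with 2 kb around the start 0.64 for Fcgr3, 0.28 for Hemgn and 0.29 for Fcgr1. These settings give a locus other peaks. Depth is unknown, so its limit cannot be given.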
